A study of Mus musculus with 2 samples.

Results

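The 37 genes described here carry a cell through mitosis: the G2/M cyclins and their kinase, the anaphase-promoting complex (APC/C) and its partners, mitotic kinases, kinetochore and spindle proteins, mitotic kinesins and cytokinesis factors. They were chosen by name and not by a cut on their values, but with earlier results of these data known. They are the rows of the count matrices whose symbol was on the list, and all 37 of 37 were found among the 27998 genes. Their mRNA was read in ileal epithelium from undamaged WT mice and from *Tipe0*-/- mice, which lack *Tnfaip8* (TIPE0), both on the C57BL/6 background and aged 8 weeks. Cells of 3 mice per genotype were pooled before droplet-based single-cell (sc)-RNASeq, so each genotype is 1 library. The labels name the material as enteroids and the methods as isolated enterocytes. The labels give the knockout as TNFAIP8-/- and name no inducible or cell type restricted allele, and neither group was injured or treated. With 1 library per genotype no test between genotypes is possible. The 95% intervals given with all values cover counting error only, and they leave out differences between mice and between library preparations.

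Entry into mitosis is driven by Cdk1 bound to cyclin A2 or B, and exit follows when the APC/C, switched on by Cdc20, marks cyclin B and securin for destruction. The spindle checkpoint kinases hold the APC/C back until every kinetochore is attached. In the intestine these genes are used in the crypt, by Lgr5+ stem cells, by the transit-amplifying cells above them and by early secretory progenitors, and they are turned off as cells mature on the villus. Most of them are switched together late in the cell cycle through promoters that carry a cell cycle homology region (CHR) and CCAAT boxes.

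RefSeq promoter sequences on GRCm38.p6 were at hand for 31 of the 37 members, as 32 promoters of 300 bases. The following 7 are shown because their genes recur in the results below: *Top2a* has the most UMIs, *Cdc20*, *Ube2c*, *Plk1* and *Ccnb2* had log2 ratios of *Tipe0*-/- over WT below 0, and *Cks2* and *Bub1* above 0, in each cycling class. Each runs 5′ to 3′ from 100 bases before the start site to 30 bases after it, and capitals mark CHR matches, spelled TTTGAA or, on the other strand, TTCAAA, or else TTTAAA, and also CCAAT boxes, spelled CCAAT or, on the other strand, as its complement ATTGG.
*Top2a*, chr11:99024160-99024289, minus strand: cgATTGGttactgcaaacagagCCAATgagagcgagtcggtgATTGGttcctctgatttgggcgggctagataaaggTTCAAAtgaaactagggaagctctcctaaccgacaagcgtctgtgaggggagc
*Cdc20*, chr4:118437314-118437443, minus strand: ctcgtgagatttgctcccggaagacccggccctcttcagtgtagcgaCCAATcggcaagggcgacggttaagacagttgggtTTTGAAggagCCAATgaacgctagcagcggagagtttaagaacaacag
*Ube2c*, chr2:164769829-164769958, plus strand: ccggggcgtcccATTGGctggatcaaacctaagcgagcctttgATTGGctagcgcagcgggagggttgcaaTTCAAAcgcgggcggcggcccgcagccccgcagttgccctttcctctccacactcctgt
*Plk1*, chr7:122159335-122159464, plus strand: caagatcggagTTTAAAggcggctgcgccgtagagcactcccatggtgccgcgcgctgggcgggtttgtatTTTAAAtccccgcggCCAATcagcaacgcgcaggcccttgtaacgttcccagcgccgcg
*Ccnb2*, chr9:70421525-70421654, minus strand: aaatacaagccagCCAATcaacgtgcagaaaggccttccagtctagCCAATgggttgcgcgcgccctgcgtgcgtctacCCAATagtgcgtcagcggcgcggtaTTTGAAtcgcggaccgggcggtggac
*Cks2*, chr13:51645132-51645261, plus strand: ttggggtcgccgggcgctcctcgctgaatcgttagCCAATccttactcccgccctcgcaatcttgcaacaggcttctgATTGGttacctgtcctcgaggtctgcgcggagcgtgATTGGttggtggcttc
*Bub1*, chr2:127831830-127831959, minus strand: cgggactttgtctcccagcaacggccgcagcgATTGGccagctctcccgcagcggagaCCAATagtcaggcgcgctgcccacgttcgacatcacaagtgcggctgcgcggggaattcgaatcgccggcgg

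Of the 32 member promoters, 24 (75%) held a CHR match in this window, against 11.7% of all 32851 promoters and 7% of the 11367 promoters of genes with at least 50 UMIs in these libraries. CCAAT matches stood in 23 member promoters (71.9%), against 21.7% and 24.2%. Both together were found in 62.5% of member promoters and in 2.56% and 2% of the other 2 sets. The promoters of *Cks2* and *Bub1* had 3 and 2 CCAAT matches and no CHR match in the window, whereas those of *Cdc20*, *Ube2c*, *Plk1* and *Ccnb2* had both. This contrast held for some other members and not for others. The promoters of *Cenpa*, *Cenpe*, *Cenpf*, *Prc1* and *Hmmr*, lower in *Tipe0*-/- in each cycling class, also had both. *Mki67*, higher in *Tipe0*-/- in each cycling class, had a CHR match in the window. *Birc5* and *Cdca3*, lower in each, had no CHR match there, though a match of *Cdca3* began at base 31, just past the window. No promoter was at hand for *Shcbp1*, higher in each class, or *Ska1*, lower in each. Higher and lower here give the sign of the log2 ratio only, without regard to its counting interval. In the class nearest to no difference, the ratio was 0.03 for *Cks2*, 0.06 for *Mki67*, -0.01 for *Cdca3* and -0.03 for *Ccnb2* and *Cenpf*. By the same measure it was -0.19 for *Ube2c* and -0.24 for *Birc5*. The contrast thus rests on small ratios for some of these genes. A match is a description of the letters and not a measured binding site.

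The WT library held 3402 cells and 38127808 UMIs and the *Tipe0*-/- library 2006 cells and 23897126 UMIs, with medians of 7760 and 7307.5 UMIs per cell. Mitochondrial genes took 6.59% of WT and 8.56% of *Tipe0*-/- UMIs. *Tnfaip8* itself had 9.76 UMIs per 1000000 UMIs of the library (CPM) for the WT library (8.79 to 10.8) against 2.39 for *Tipe0*-/- (1.81 to 3.09), lower where the label gives the knockout. A total of 9 cell barcodes occurred in both libraries. The name "enterocyte" in the methods covers the whole epithelium: Paneth-like, goblet-like and tuft-like clusters were present. In addition, 96 WT and 17 *Tipe0*-/- cells were lymphocyte-like.

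Summed over the 37 genes, mitosis transcripts were 1824 CPM of the WT library (1811 to 1838; 69547 UMIs) and 1970 CPM of the *Tipe0*-/- library (1953 to 1988; 47086 UMIs). The log2 ratio of *Tipe0*-/- over WT was 0.11 (0.09 to 0.13), but it was -0.043 when the median ratio of genes was set to 0. The 11665 genes with at least 50 UMIs had a median of 0.15, and the median over the 37 members was also 0.15. All 37 members had at least 50 UMIs, 27 had a log2 ratio above 0 and 18 one above the median of all genes. The mitosis genes as a group thus lay where genes in general lay. In pooled cells, more cells in mitosis and more mRNA per mitotic cell cannot be told apart from such sums.

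*Top2a*, the topoisomerase that untangles sister chromatids (chromosome 11 from 98992943 to 99024189 on GRCm38), had the highest level in 3′ UMIs, which count molecules and not their length, with 221 CPM for WT (216 to 225) against 250 for *Tipe0*-/- (244 to 257). *Cks2*, the small Cdk-binding subunit (chromosome 13 from 51645232 to 51650660), had 181 CPM (177 to 185) and 230 (224 to 236). Both were higher in the *Tipe0*-/- library, *Top2a* by a log2 ratio of 0.18 (0.13 to 0.23) and *Cks2* by 0.35 (0.30 to 0.40), of which the first is close to the shift of all genes and the second exceeds it. *Ube2c*, the E2 enzyme that starts ubiquitin chains for the APC/C (chromosome 2 from 164769898 to 164778822), stood at 141 CPM for WT (137 to 145) against 126 for *Tipe0*-/- (121 to 130). *Birc5*, or survivin, of the chromosomal passenger complex, had 114 CPM (111 to 117) and 106 (102 to 111). *Cenpa*, the histone H3 variant that marks centromeres, had 87.7 CPM (84.7 to 90.7) and 78.2 (74.7 to 81.9). These 3 were lower in *Tipe0*-/- cells under each scaling and cell filter tried, with log2 ratios of -0.17 (-0.23 to -0.10), -0.10 (-0.17 to -0.03) and -0.16 (-0.25 to -0.08).

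Other abundant members differed little. *Cdca3*, a trigger of mitotic entry and APC/C substrate, stood at 89.96 CPM for WT against 88.6 for *Tipe0*-/-, giving a log2 ratio of -0.02 (-0.10 to 0.06). *Cdca8*, or borealin, had 70.1 and 67.5 CPM (-0.05; -0.14 to 0.04) and *Cenpf*, a kinetochore protein of G2, had 68.0 and 68.7 CPM (0.01; -0.08 to 0.10). *Ccna2*, which encodes cyclin A2, stood at 70.4 CPM for WT against 78.2 for *Tipe0*-/-. *Cdk1*, its kinase, had 68.8 and 77.0 CPM. The log2 ratios of this pair, 0.15 (0.07 to 0.24) and 0.16 (0.08 to 0.25), equalled the shift of all genes, and without that shift the ratio of *Ccna2* turned to -0.0020.

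**Figure D1:**
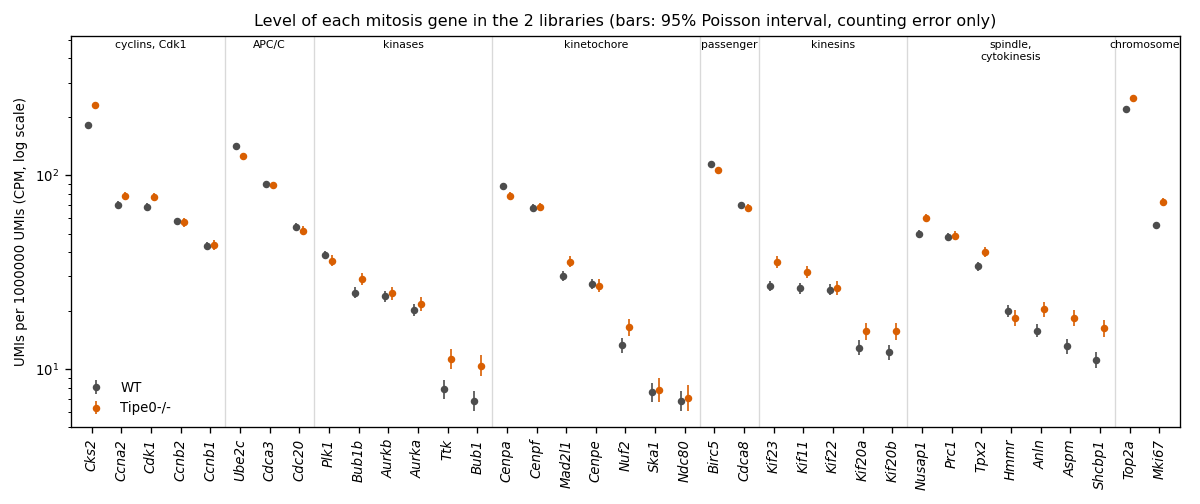
Level of each of the 37 mitosis genes in CPM (log axis) in the WT (grey) and *Tipe0*-/- (orange) library, grouped by role and ordered by UMIs within a role; bars are exact 95% Poisson intervals. Levels span from 6.85 CPM for *Bub1* and *Ndc80* in WT to 250 CPM for *Top2a* in *Tipe0*-/-, and the points of the 2 libraries lie close together in most genes.

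The largest ratios belonged to low-abundance genes. *Bub1*, a spindle checkpoint kinase, reached 6.85 CPM (6.04 to 7.73) in WT, against 10.4 (9.17 to 11.8) in *Tipe0*-/-, giving a log2 ratio of 0.61 (0.35 to 0.86). *Shcbp1*, a midbody protein of cytokinesis, had 11.2 CPM (10.1 to 12.3) and 16.3 (14.7 to 17.98), giving a log2 ratio of 0.54 (0.34 to 0.74). *Ttk*, the Mps1 checkpoint kinase, had 7.87 CPM (7.003 to 8.81) and 11.3 (9.99 to 12.7), giving a log2 ratio of 0.52 (0.28 to 0.76). All 3 exceed the shift of all genes. At the other end, next to *Ube2c* and *Cenpa*, stood *Hmmr*, a spindle assembly factor, with 19.96 CPM for WT (18.6 to 21.4) against 18.4 for *Tipe0*-/- (16.7 to 20.2). Its log2 ratio of -0.12 had an interval from -0.29 to 0.05, so a difference was not detectable at this depth.

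Levels at least 25% higher in *Tipe0*-/- were found for 9 of 37 members, or 24.3%, against 27.9% of all genes with at least 50 UMIs. These were *Bub1*, *Shcbp1*, *Ttk*, *Aspm*, *Kif23*, *Mki67*, *Anln*, *Kif20b* and *Cks2*. No member was at least 20% lower, which is the same fold in the other direction, against 9.09% of all genes. Both shares are at or below the background, and 4 members stayed past this fold after scaling by the median gene. At 1.5-fold, only *Bub1* remained, against 8.62% of all genes, and no member was lower by that fold, against 5.06%.

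**Figure D2:**
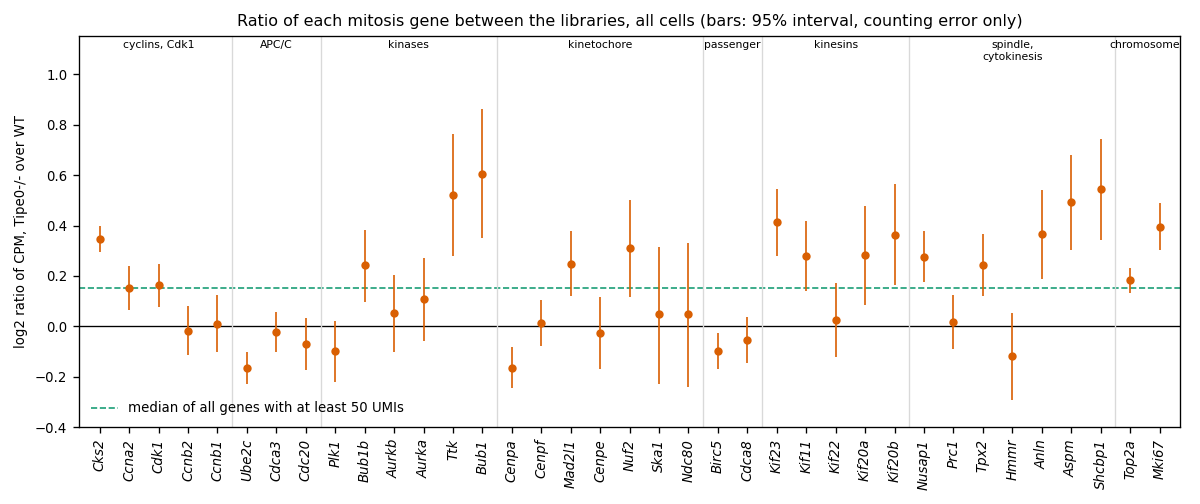
Log2 ratio of CPM, *Tipe0*-/- over WT, for each mitosis gene over all cells, with exact 95% intervals for counting error; the solid line is 0 and the dashed line the median of all 11665 genes, 0.15. *Bub1* (0.61), *Shcbp1* (0.54) and *Ttk* (0.52) stand highest and *Ube2c* (-0.17) and *Cenpa* (-0.16) lowest; genes between the lines change sign when the shift of all genes is removed.

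The remaining members lay between these. *Mki67*, the proliferation marker, had 55.2 CPM (WT) and 72.6 CPM (*Tipe0*-/-), a difference of 0.40 on the log2 scale (0.30 to 0.49). The microtubule binders *Nusap1*, *Tpx2* and *Prc1* had log2 ratios of 0.28, 0.24 and 0.02, the last with 48.2 and 48.8 CPM. *Mad2l1* (0.25; 0.12 to 0.38) and *Bub1b* (0.24; 0.10 to 0.38), both of the spindle checkpoint, and *Aurkb* (0.05; -0.10 to 0.20), the kinase of the passenger complex, had intervals that include the shift of all genes.

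Among the kinetochore genes *Nuf2* had 13.3 and 16.4 CPM (0.31; 0.12 to 0.50), whereas *Ndc80*, its partner in the complex that grips microtubules, had 6.85 and 7.07 CPM (0.05; -0.24 to 0.33). *Ska1* (0.05) and the kinetochore motor *Cenpe* (-0.03) were near 0. Of the kinesins, *Kif23* (0.41; 0.28 to 0.54) and *Kif20b* (0.36; 0.16 to 0.56) had the largest ratios. *Kif11* (0.28; 0.14 to 0.42), *Kif20a* (0.28; 0.08 to 0.48) and *Kif22* (0.03; -0.12 to 0.17) followed. Only the intervals of *Kif23* and *Kif22* did not overlap. *Aspm* (0.49) and *Anln* (0.37), the contractile ring scaffold anillin, were the highest spindle and cytokinesis genes after *Shcbp1*.

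The roles differed in this respect in sums over all cells, where the difference in makeup between the libraries was not removed. The 3 genes of the APC/C group (*Cdc20*, *Ube2c*, *Cdca3*) summed to 285 CPM for WT against 266 for *Tipe0*-/-, giving a log2 ratio of -0.10 (-0.14 to -0.06), with *Cdc20* itself at -0.07 (-0.17 to 0.03), and the 2 passenger genes (*Birc5*, *Cdca8*) to 184 and 174 CPM (-0.08; -0.14 to -0.03). The 7 kinetochore and checkpoint genes had 241 CPM in both libraries, giving a log2 ratio of 0.00 (-0.05 to 0.05). Above the shift of all genes were the 5 kinesins, which move and slide spindle microtubules (104 and 124.9 CPM; 0.27, 0.20 to 0.34), and the 7 spindle and cytokinesis genes (192 and 222 CPM; 0.21, 0.16 to 0.27). The 5 genes of the cyclin and Cdk1 group had a log2 ratio of 0.21 (0.17 to 0.24). Of them only *Cks2* (0.35; 0.30 to 0.40) had an interval above the shift, whereas *Ccnb1* and *Ccnb2*, the B cyclins, had 0.01 (-0.10 to 0.12) and -0.02 (-0.12 to 0.08). The 2 chromosome genes (*Top2a*, *Mki67*) summed to 276 and 323 CPM (0.23; 0.18 to 0.27), also above the shift. Of this pair only *Mki67* (0.30 to 0.49) had an interval above the shift, whereas that of *Top2a* (0.13 to 0.23) includes it. The 6 kinases had 122 and 133 CPM (0.13; 0.06 to 0.19), an interval that includes the shift. Among them *Plk1* and *Aurka*, which build the spindle poles, had -0.10 (-0.22 to 0.02) and 0.11 (-0.06 to 0.27). Within the cell classes described below these sums differed. The kinetochore and checkpoint genes had -0.36 (-0.48 to -0.24) in stem-like and -0.05 (-0.19 to 0.08) in transit S-phase-like cells. They had -0.14 (-0.25 to -0.03) in transit G2/M-like and -0.19 (-0.28 to -0.11) in secretory progenitor-like cells. In the same order of classes the kinesins had -0.27 (-0.46 to -0.08), 0.22, 0.34 and 0.07.

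The members with higher ratios were also longer and less abundant genes. Across the 37 members the log2 ratio had a Spearman rho of 0.45 with the span of the gene on the genome (GENCODE vM21) and of -0.47 with its UMIs, and span and UMIs were themselves related (-0.44). Over 11648 genes the same values were 0.15, -0.14 and -0.05. In transit S-phase-like cells the rho of ratio with span was 0.16 for the members, below the 0.23 of all genes. It was 0.39 in stem-like, 0.53 in transit G2/M-like and 0.40 in secretory progenitor-like cells, against 0.18, 0.24 and 0.20 for all genes. The 17 members that span under 20 kb had a median log2 ratio of 0.03 and the 20 longer members one of 0.28, against 0.09 for 5338 short and 0.20 for 6310 long genes in general. *Ube2c*, *Birc5* and *Cenpa* span 8.93, 6.49 and 8.05 kb, whereas *Bub1*, *Shcbp1* and *Ttk* span 30.7, 43.6 and 37.7 kb. *Cks2*, at 5.43 kb, is an exception. These are correlations across genes that share 2 libraries and are not independent, and the part of span in the ratios was not tested.

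All cells were put into 1 clustering that did not use the 37 genes, and the 12 clusters were named from marker genes. Other cell cycle genes stayed in the clustering and among the naming markers, so some difference in level between clusters was built in. The mitosis genes differed in level between the clusters. They summed to 3707 CPM (3651 to 3764) in the transit G2/M-like class of WT cells, 3305 (3236 to 3374) in stem-like cells, 2903 (2862 to 2943) in secretory progenitor-like cells and 2366 (2317 to 2416) in transit S-phase-like cells. In WT these neighbours did not overlap in their counting intervals, but in *Tipe0*-/- stem-like and secretory progenitor-like cells did. Tuft-like cells, at 2403 CPM (2337 to 2469), could not be separated from the S-phase-like class. Of tuft-like cells, 10.1% in WT and 19.6% in *Tipe0*-/- were among the 5% of cells with the highest doublet scores. Paneth-like cells, with 11.0% and 10%, and goblet-like cells, with 9.87% and 10.6%, had shares near that of WT tuft-like cells. The part of doublets in the tuft-like level was not tested. Paneth-like cells had 654 CPM, an unnamed cluster led by *Slc40a1* 519, goblet-like cells 451 and enterocyte-like cells 137 (127 to 147), the lowest. Lymphocyte-like cells had the highest level, 4349 CPM (4174 to 4530), in 96 cells.

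The names were checked against markers. Stem-like cells had 181 CPM of *Lgr5* in WT and 196 in *Tipe0*-/-, against 0.946 to 24.1 CPM in the transit and secretory progenitor-like classes of both libraries. Their summed enteroendocrine markers were 866 CPM for WT against 554 for *Tipe0*-/-, with none of 10 at 0, and their lymphocyte markers 25.2 and 11.8 CPM, with 1 of 12 at 0. The name secretory progenitor-like is weakly supported. Its 12 summed markers had 429 and 417 CPM in this class but 519 and 468 CPM in stem-like cells. *Atoh1* had 57.3 and 72.8 CPM here and 108 and 182 in goblet-like cells, and *Spdef* had 60.1 CPM here in WT but 33.4 in *Tipe0*-/-. The class also had 22727 and 23840 CPM of goblet markers and the deepest cells of the 4 cycling classes, with medians of 15670 and 17398 UMIs per cell. Of these cells, 7.76% in WT and 9.34% in *Tipe0*-/- were among the 5% of cells with the highest doublet scores. The 10 leading genes of the transit G2/M-like cluster were 5 members (*Cdc20*, *Ube2c*, *Ccnb1*, *Ccnb2*, *Ccna2*), the marker *Cdkn3*, and *Lrg1*, *Akr1c19*, *Rbp7* and *Dmbt1*, which are not cell cycle markers. Its 20 summed G2/M markers, none of them a member, had 3456 CPM in WT and 3797 in *Tipe0*-/-, against 3532 and 3290 in stem-like cells, so in WT they did not set it apart from the stem-like class.

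Within the stem-like class mitosis transcripts were lower in *Tipe0*-/- cells. They were 3305 CPM in 330 WT cells and 2804 CPM (2738 to 2871) in 257 *Tipe0*-/- cells, giving a log2 ratio of -0.24 (-0.28 to -0.19), while the median over all genes in these cells was 0.05. In secretory progenitor-like cells they were 2903 CPM in 425 WT cells and 2739 (2698 to 2781) in 332 *Tipe0*-/- cells, giving a log2 ratio of -0.08 (-0.11 to -0.05) beside a median of 0.07. The transit G2/M-like class had 3707 and 3680 CPM (-0.01; -0.05 to 0.03). The transit S-phase-like class had 2366 and 2511 CPM (0.09; 0.04 to 0.13), beside medians of 0.09 and 0.06. The stem-like ratio was below 0 in each of 7 other clusterings but shrank to -0.058 at resolution 0.4 and to -0.066 with 2000 variable genes by vst, where transit-like (-0.19) and secretory progenitor-like cells (-0.083) were lower. The secretory progenitor-like ratio turned to 0.053 when all listed cell cycle genes were kept out of the clustering. The enteroendocrine markers that also were lower in *Tipe0*-/- stem-like cells are given above, and their part in the result was not tested.

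**Figure D3:**
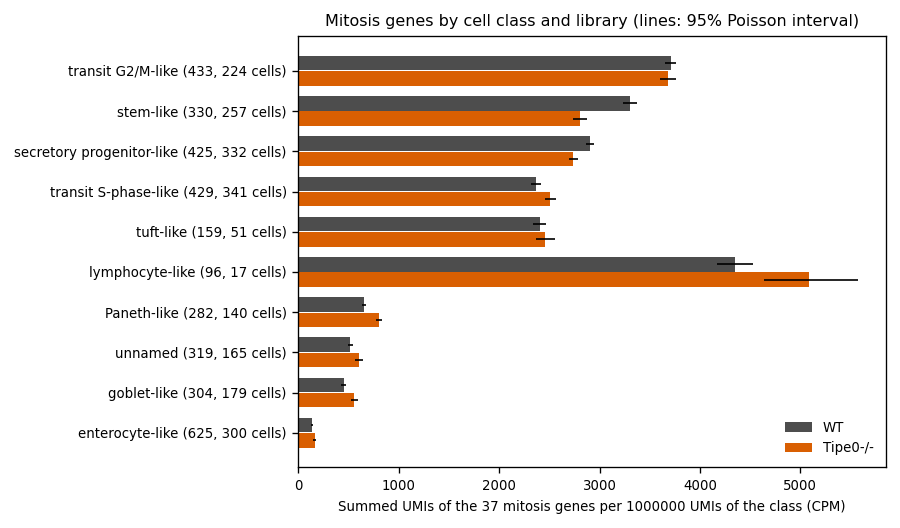
Summed UMIs of the 37 mitosis genes per 1000000 UMIs of each cell class, WT (grey) and *Tipe0*-/- (orange), with exact 95% Poisson intervals; cell numbers are WT, then *Tipe0*-/-. Stem-like cells stand at 3305 CPM for WT against 2804 for *Tipe0*-/-, transit G2/M-like cells are level at 3707 and 3680 CPM, and enterocyte-like cells are lowest at 137 and 161 CPM.

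In stem-like cells 14 of 37 members (37.8%) were at least 20% lower in *Tipe0*-/-, against 14% of 7879 genes, and 1 (*Shcbp1*) was at least 25% higher, against 20%. *Hmmr* had the lowest ratio, with 37.8 CPM for WT (30.8 to 45.9) against 24.0 for *Tipe0*-/- (18.2 to 30.9), giving a log2 ratio of -0.65 (-1.14 to -0.18). *Kif22*, a chromosome-arm kinesin, had 44.1 CPM (36.5 to 52.7) and 29.2 (22.9 to 36.8), or -0.59 (-1.03 to -0.16). *Ube2c* had 259 CPM (240 to 279) and 181 (164 to 198), or -0.52 (-0.70 to -0.35). The other members past this fold were *Cdc20*, *Plk1*, *Aurkb*, *Ccnb1*, *Cenpa*, *Cenpe*, *Kif11*, *Cdca3*, *Cenpf*, *Birc5* and *Kif20a*, from -0.49 for *Cdc20* to -0.36 for *Kif20a*. They included all 3 genes of the APC/C group and 3 of the 5 kinesins, but only *Hmmr* of the 7 spindle and cytokinesis genes. *Top2a* (-0.12; -0.24 to -0.00), *Cks2* (0.03; -0.12 to 0.17) and *Mki67* (0.06; -0.17 to 0.29) lay closer to 0.

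In the transit G2/M-like class 7 members were at least 25% higher in *Tipe0*-/- (background 23.9% of 7961 genes) and 1, *Plk1*, was lower (2.70%, background 11.3%). The higher ones were 3 kinesins, 3 spindle and cytokinesis genes and 1 kinase, a share of 18.9% that is below the background: *Bub1* (0.87; 0.35 to 1.38), *Aspm* (0.75; 0.36 to 1.14), *Kif23* (0.69; 0.39 to 0.98), *Shcbp1* (0.64), *Anln* (0.61), *Kif11* (0.55) and *Kif20b* (0.34). *Prc1* and *Hmmr*, also of the spindle and cytokinesis group, had -0.09 and -0.13. *Kif23*, the central spindle motor of cytokinesis, stood at 50.1 CPM for WT (43.8 to 57.1) against 80.9 for *Tipe0*-/- (69.2 to 93.9). *Aspm*, which focuses spindle poles, had 28.1 CPM (23.4 to 33.4) and 47.3 (38.5 to 57.5). *Plk1* had 87.6 CPM (79.1 to 96.7) and 68.1 (57.4 to 80.2), giving a log2 ratio of -0.36 (-0.65 to -0.08). The summed level of the class differed by less than counting error between the libraries, while single members went both ways.

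In the transit S-phase-like class 9 members were at least 25% higher, a share of 24.3% that is near the background of 21.3% of 8115 genes. Only 1, *Ndc80*, was lower (2.70%, background 12.4%). *Top2a* stood at 315 CPM for WT (297 to 333) against 380 for *Tipe0*-/- (357 to 403), giving a log2 ratio of 0.27 (0.15 to 0.39), and *Mki67*, whose product coats mitotic chromosomes, had 78.6 (69.9 to 88.2) and 102 (90.5 to 114), or 0.37 (0.13 to 0.61). In secretory progenitor-like cells 2 members (5.41%, background 19% of 9600 genes) were higher and 3 (8.11%, background 9.20%) lower, so neither share exceeded the background. The lower ones were *Cdca8* (-0.40; -0.56 to -0.25), *Cenpa* (-0.38; -0.53 to -0.24) and *Ube2c* (-0.34; -0.46 to -0.23), and the higher ones were *Bub1* (0.51) and *Ttk* (0.38).

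Across the 4 cycling classes 12 of 37 members (32.4%) had a log2 ratio below 0 in each, against 18.6% of the 7301 genes with at least 50 UMIs in all 4. They were *Ccnb2*, *Cdc20*, *Ube2c*, *Cdca3*, *Plk1*, *Cenpa*, *Cenpe*, *Cenpf*, *Ska1*, *Birc5*, *Prc1* and *Hmmr*. All 3 members of the APC/C group were among them, and the summed ratio of that group was -0.47 (-0.60 to -0.35) in stem-like, -0.12 (-0.25 to 0.00) in S-phase-like, -0.26 (-0.35 to -0.16) in G2/M-like and -0.22 (-0.30 to -0.14) in secretory progenitor-like cells. This was not particular to the APC/C group. The kinetochore and checkpoint group was also below 0 in each class, and the groups other than these and the passenger genes were above 0 in some class. The 2 passenger genes had -0.28, -0.21, -0.20 and -0.31 in the same order, each with an interval below 0. For *Birc5* the 4 ratios ranged from -0.37 to -0.24. Above 0 in each class were 4 members (10.8%, against 29.8% of genes): *Cks2*, *Bub1*, *Shcbp1* and *Mki67*. For single genes the sign alone was counted, and some of these ratios had counting intervals that include 0. The classes come from the same 2 libraries, so the 4 values of a gene are not independent.

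**Figure D4:**
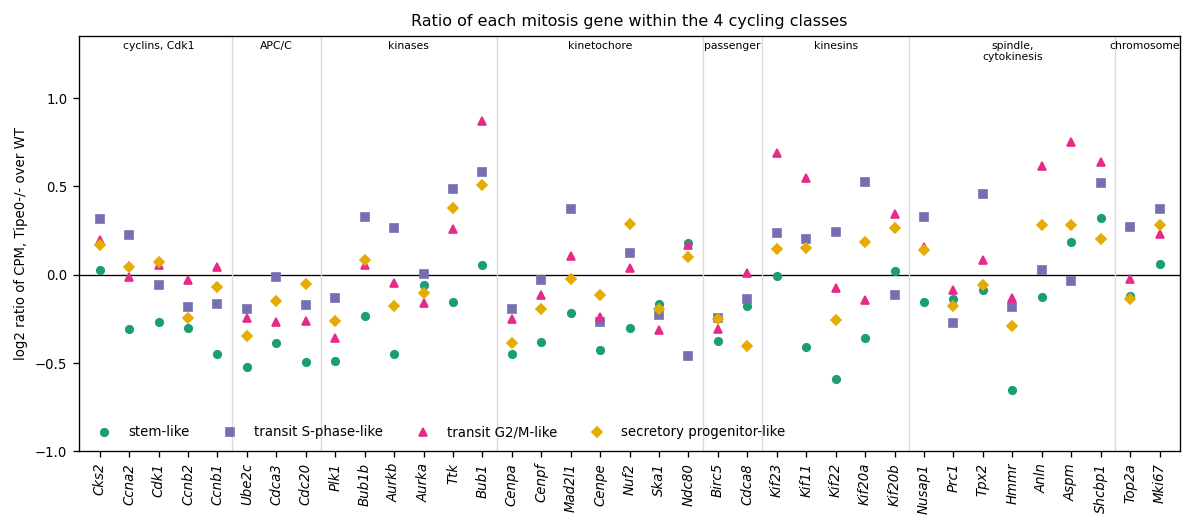
Log2 ratio of CPM, *Tipe0*-/- over WT, for each mitosis gene in stem-like (circles), transit S-phase-like (squares), transit G2/M-like (triangles) and secretory progenitor-like (diamonds) cells; intervals are left out and are wide for genes of few UMIs. In this clustering stem-like cells are lowest for most members, down to -0.65 for *Hmmr*, and G2/M-like cells highest for *Bub1* (0.87), *Aspm* (0.75) and *Kif23* (0.69).

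Cells rich in mitosis transcripts were counted next. Each cell was thinned at random to 3000 UMIs, which left out no cell, and a cell with at least 10 UMIs of the 37 genes was called mitotic-high. This held for 766 of the 3402 cells in WT (22.5%, interval 21.1 to 24.0%) and for 455 of the 2006 in *Tipe0*-/- (22.7%, interval 20.9 to 24.6%). *Tipe0*-/- minus WT was 0.166 points, with bounds at -2.12 and 2.50, so no difference was detectable at this depth. Without thinning the shares were 43.2% and 44.4%. As a background, 0.640% of WT and 0.667% of *Tipe0*-/- enterocyte-like cells, which have left the cycle, were mitotic-high, from median depths of 6708 and 5761 UMIs.

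The content of a mitotic-high cell was alike in both libraries, with a median of 15 thinned mitosis UMIs from a median of 11 different members. Mitosis transcripts were unevenly spread: 33.0% of WT and 31.1% of *Tipe0*-/- cells had no thinned UMI of any member. In counts before thinning, the richest 340 and 201 cells held 45.2% and 46.0% of all mitosis UMIs, a share that differences in depth between cells also enter. In mitotic-high cells *Top2a* was found in 80.2% of WT and 77.4% of *Tipe0*-/- cells and *Cks2* in 75.3% and 84.0%. *Ube2c* was found in 67.5% of WT and 59.8% of *Tipe0*-/- mitotic-high cells and *Cenpa* in 52.9% and 43.5%. In enterocyte-like cells these 4 genes were found in 0.33% to 10.7% of cells, the highest share being that of *Cks2*.

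By class, mitotic-high cells were 48.5% of WT (43.0 to 54.0%) and 40.1% of *Tipe0*-/- (34.0 to 46.3%) stem-like cells. They were 38.8% (34.2 to 43.6%) and 34.0% (29.0 to 39.4%) of secretory progenitor-like cells, 49.7% (44.8 to 54.5%) and 52.7% (45.9 to 59.4%) of transit G2/M-like cells, and 24.7% (20.7 to 29.1%) and 24.9% (20.4 to 29.9%) of transit S-phase-like cells. The counting intervals overlap in each of these 4 classes, but overlap is not an interval of the difference, which was not computed by class. Without thinning the stem-like shares were 66.4% and 63.0% and the secretory progenitor-like shares 84.5% and 75.3%.

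**Figure D5:**
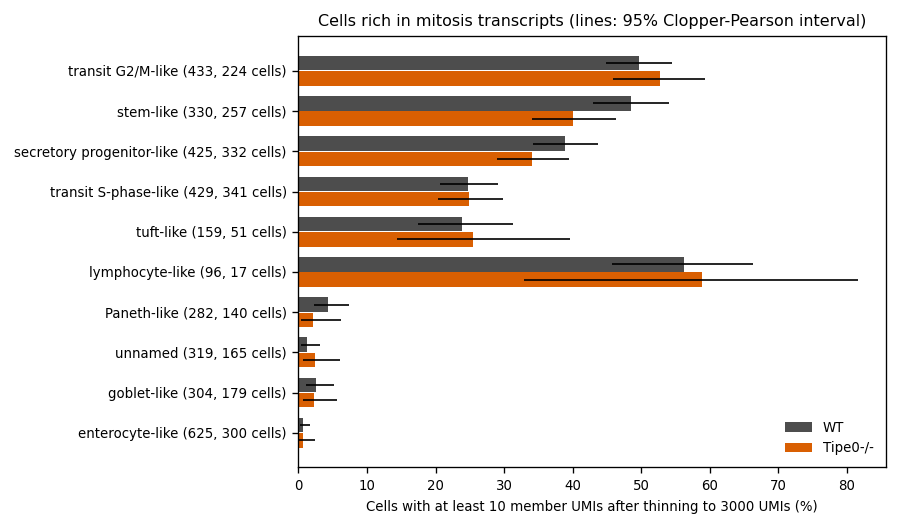
Share of cells with at least 10 UMIs of the 37 mitosis genes after thinning to 3000 UMIs, by class, in WT (grey) and *Tipe0*-/- (orange), with exact 95% Clopper-Pearson intervals. The intervals of both libraries overlap in every class shown, with 48.5% and 40.1% in stem-like cells, 49.7% and 52.7% in transit G2/M-like cells and 0.640% and 0.667% in enterocyte-like cells. Overlap is not an interval of the difference.

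The makeup of the libraries differed as well. Secretory progenitor-like cells contributed 17.9% of WT and 25.9% of *Tipe0*-/- UMIs and stem-like cells 7.08% and 10.3%, whereas enterocyte-like cells contributed 14.1% and 9.82%. When every class was given its mean share over the 2 libraries, the summed members were 1915 CPM for WT against 1899 for *Tipe0*-/-, giving a log2 ratio of -0.01 in place of 0.11. Of the difference of 146 CPM, 163 CPM went with the makeup and -16.5 CPM with the level within classes. *Top2a* had a ratio of 0.01 at the same makeup, *Ube2c* -0.27, *Cenpa* -0.28 and *Birc5* -0.22. *Bub1* (0.55), *Shcbp1* (0.43), *Aspm* (0.41), *Ttk* (0.35) and *Cks2* (0.24) stayed above 0. Lymphocyte-like cells, rich in mitosis transcripts, held 3.34% of WT and 1% of *Tipe0*-/- member UMIs, and without them the summed ratio was 0.13.

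Over the 20 profiles of 10 classes by 2 libraries the members varied together. The Pearson correlation of each member with the sum of the others ran from 0.85 for *Ndc80* to 0.99 for *Bub1b*. Of 4900 other genes with at least 50 CPM in some profile, those most like the summed members were *Hmgb2* (r = 0.97), *Nucks1* (0.97), *Lbr* (0.97), *Smc4* (0.97), *Ndc1* (0.97), *H2afx* (0.97), *Arhgap11a* (0.97), *Spag5* (0.96), *Rangap1* (0.96) and *Dbf4* (0.96). Of these, *Hmgb2*, a chromatin protein of dividing cells, had a log2 ratio of 0.46 between the libraries, and *H2afx* had -0.05. The profiles share cells, libraries and depth, so these values are a description.

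Related cell cycle genes were read from fixed lists, with levels 25% higher or 20% lower as the mark and 27.9% higher and 9.09% lower as the share of all genes. Log2 ratios from 0 to 0.15 in these lists turn negative when the shift of all genes is removed. Of 80 other mitosis genes 26 were higher and 1, *Fam64a* (-0.39), lower, with a median log2 ratio of 0.21. *Tubb4b*, a spindle tubulin, stood at 397 CPM for WT against 349 for *Tipe0*-/- (-0.19; -0.23 to -0.15), *Bub3* had 0.07, *Pttg1*, which encodes securin, had -0.32 (-0.44 to -0.20), and *Fbxo5* (0.69), the APC/C inhibitor Emi1, and *Cenpk* (0.66) were highest. A list of 16 APC/C genes holds its subunits, the coactivator *Fzr1* and the E2 enzyme *Ube2s*. Of them 3 were higher and none lower (median 0.13). *Ube2s*, the E2 that extends the chains *Ube2c* starts, stood at 196 CPM for WT against 171 for *Tipe0*-/- (-0.20; -0.25 to -0.14), and *Anapc15* had -0.21 (-0.35 to -0.07). *Anapc13* had 0.26, *Anapc11* -0.06, *Anapc10* 0.56 and *Cdc16* 0.37.

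Genes of the earlier cell cycle stood higher over all cells, where the difference in makeup between the libraries was not removed. Of 36 DNA replication genes 13 were higher and none lower, all 36 were above 0, 30 were above the median of all genes, and the median was 0.28: *Dut* had 0.30, *Mcm6*, of the replicative helicase, 0.60 (0.53 to 0.68), *Lig1* 0.16, *Pole* 0.64, *Pcna* 0.61 (0.52 to 0.70), *Rrm2* 0.01 and *Gins2* 0.02. A list of 13 genes of G1 holds its cyclins and their kinases and also *Myc*, *Rb1*, *E2f1*, *E2f2* and *E2f3*, regulators of the G1/S step. Of them 7 were higher, *Myc*, *E2f3* (0.55) and *Rb1* (0.33) included, and 1 was lower (median 0.33). *Ccnd2*, which encodes cyclin D2, stood at 295 CPM for WT against 434 for *Tipe0*-/- (0.56; 0.52 to 0.59), *Ccnd1* had 0.17, *Cdk4* 0.14, *Cdk2* 0.82, *Ccne1* 0.06, *Ccnd3* -0.39 and *Myc* 1.13 (0.99 to 1.27). Of 7 Cdk inhibitors 2 were higher and 4 lower (median -0.40): *Cdkn1a*, or p21, had 119 and 90.3 CPM (-0.40; -0.47 to -0.33), *Cdkn2b* -0.52, *Cdkn2a* -1.19 from 67 and 18 UMIs, *Cdkn1b* 0.53 and *Cdkn2c* 0.64. Their sum over all cells had -0.22 (-0.27 to -0.17), but within the cycling classes it was not below 0. It had 0.04 (-0.23 to 0.31) in stem-like and 0.42 (0.18 to 0.66) in transit S-phase-like cells. Transit G2/M-like cells had 0.15 (-0.03 to 0.34) and secretory progenitor-like cells 0.14 (-0.01 to 0.28). Values below 0 were found in other classes, such as enterocyte-like (-0.09) and tuft-like cells (-0.57). The last list joins subunits of the DREAM complex, which holds mitosis promoters shut in resting cells, with *Foxm1* (0.40) and *Mybl2* (0.01), activators of such promoters that are also among the 80 other mitosis genes. Of its 12 genes with at least 50 UMIs 6 were higher, *Foxm1* included, and none lower (median 0.32), with *Rbbp4* at 0.33, *Tfdp2* at 0.41, *Lin54* at 0.43, *E2f4* at 0.00 and *Lin37* at -0.02.

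Within stem-like cells the replication and G1 lists parted from the mitosis members, whereas the other mitosis genes were also below 0. Replication genes stood at 2209 CPM for WT against 2234 for *Tipe0*-/- (0.02; -0.04 to 0.07), the G1 list 1289 and 1586 CPM (0.30; 0.23 to 0.37), and the 80 other mitosis genes 4440 and 4152 CPM (-0.10; -0.13 to -0.06). The 37 members, at -0.24, were the lowest of these groups in this class. In secretory progenitor-like cells the same lists had 0.08, 0.17 and 0.06, against -0.08 for the members. In transit S-phase-like cells they had 0.07, 0.24 and 0.09, against 0.09 for the members. In transit G2/M-like cells they had -0.03, 0.08 and 0.10, against -0.01 for the members. The list of 16 APC/C genes had -0.15 (-0.22 to -0.08) in stem-like cells. In S-phase-like, G2/M-like and secretory progenitor-like cells it had -0.02, -0.06 and -0.04, with intervals that include 0. The DREAM list had 0.00 (-0.12 to 0.13) in stem-like cells. All values come from 1 library per genotype, and how far a second pool of mice would differ is not measured here.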

How the data were processed

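The study profiled ileal epithelium by sc-RNASeq (10x Genomics 3′ v2) in 1 WT and 1 *Tipe0*-/- library. The authors aligned reads to mm10 and counted with Cell Ranger, and deposited UMI counts per gene and cell, 1 matrix per library. The methods also name a read-depth normalization when libraries were aggregated, and whether the deposited counts precede it is not given in the sources used here. Here counts were summed per library or class as CPM with exact Poisson intervals, and log2 ratios (0.5 added to each sum) with exact binomial intervals; no test was made. The whole-library ratios and their intervals were tested on simulated data that held counting error alone. Clustering, class naming, makeup and mitotic-high calls were not tested in this way. The 37 members, the lists and the markers were chosen with earlier results of these data known. Cells were clustered with Seurat 5.3.0 (R 4.3.3; 14 principal components, resolution 0.8), leaving members and genes of the study's genotype comparison table out of the variable genes, since the members should not shape the clusters. The authors' values in that table were not used. The naming rule (the class with most markers among 10 leading genes, then highest mean z-score, with 3 or more detected) was set after clusters were seen, so classes may differ from the study's. Scrublet (scanpy 1.11.5) called 15 and 3 cells, too few to have worked, and no cell was removed. Named genes: the 10 members with most UMIs, the 3 highest and 3 lowest ratios, from each list the 3 most abundant and 2 highest and lowest, and the 10 most similar genes; members named within classes were chosen after their values were seen. Alternatives were scaling, count floors, doublets, deep cells and clustering.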

Additional observations from a re-analysis of the deposited data

Results flagged for a closer look

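The ratio of summed mitosis transcripts between the libraries had opposite signs in different cell classes, with counting intervals away from 0 on both sides. It was -0.24 in stem-like and -0.084 in secretory progenitor-like cells (log2, *Tipe0*-/- over WT). It was 0.24 in enterocyte-like, 0.31 in goblet-like, 0.29 in Paneth-like, 0.23 in lymphocyte-like, 0.09 in transit S-phase-like and 0.23 in unnamed cells, which makes 12 pairs of classes. With 1 library per genotype the difference between classes was not tested. The medians over all genes of each class were 0.05, 0.07, 0.13, 0.05, 0.49, -0.06, 0.06 and 0.09 in the same order, so the Paneth-like value lies below the other genes of its class and only there does the sign turn on that scale. The intervals of enterocyte-like (0.05 to 0.42) and transit S-phase-like cells (0.04 to 0.13) included the medians of their classes, so these did not stand apart on that scale. The 2 enterocyte-like clusters went opposite ways, with 113 and 178 CPM in WT and *Tipe0*-/- in 1 and 188 and 121 in the other, and so did the 2 goblet-like clusters, with 591 and 394 CPM in 1 and 327 and 714 in the other. The lymphocyte-like value rests on 96 and 17 cells, and the mix of cells in this class differed between the libraries. *Gzma* had 2998 CPM in WT and 1264 in *Tipe0*-/-, *Cd79a* 193 and 605, and summed enteroendocrine markers 1170 and 10.8.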

How the results depend on the processing

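The values depend on scaling, on deep cells and on clustering, and counting error is the only error known. Scaling by the median ratio over genes gave -0.043 for the summed members, -0.0020 for their median, 4 members at least 25% higher, -0.17 at the same makeup, -0.12 in transit-like (both transit classes) and -0.15 in secretory progenitor-like cells, and *Ccna2* turned to -0.0020. Totals without mitochondrial and the 20 most abundant genes gave 0.053, 0.094 and, in transit-like cells, -0.013. Without the 5% of cells with the most UMIs the summed members had 0.035, the median 0.039, the same makeup -0.068 and secretory progenitor-like cells -0.13. Without lymphocyte-like cells the sum was 0.13, with thinned cells 0.042, and log-normalized means put the median at 0.12. At 1.5-fold 1 member was past the mark. At the same makeup, the clusterings gave -0.034 (members kept), 0.0082 (all cell cycle genes left out), 0.030 (genotype genes kept), 0.0055 (resolution 0.4) and 0.010 (resolution 1.2), against -0.012, and their causes were not tested. Stem-like cells had -0.18 with members kept, -0.18 with genotype genes kept, -0.066 by vst and -0.058 at resolution 0.4. Transit-like cells, at -0.044 as reported, had -0.13 (members kept), -0.083 (genotype genes kept), -0.19 (vst), -0.11 (resolution 1.2) and -0.10 (canonical correlation). Secretory progenitor-like cells turned to 0.053 with all cell cycle genes left out, had -0.017 at resolution 0.4, and formed no class at resolution 1.2 or with genotype genes kept. In all, 40 of the 73 values under other settings for these 8 results stayed within counting error (the count of members, within 1.5 times), and so did 172 of 222 for single members; thinning and removal of lymphocyte-like cells for single members were added after the data were seen. No paired analysis was possible because each genotype has 1 library.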
